A study of Mus musculus with 6 samples.

Results

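Neutrophils are white blood cells that mature in bone marrow and carry ready-made antimicrobial proteins in cytoplasmic granules. The 10 genes described here code for such proteins: Mpo, Elane, Prtn3, S100a8, S100a9, Ngp, Camp, Ltf, Mmp8 and Lcn2. They were taken by gene symbol from the platform annotation, with the highest-mean probe set per gene. All 10 were measured, each by 1 probe set, among 22180 genes in all, and all 10 had a mean above the lower quartile of the deposited values, 3.62 on the log2 scale.

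The samples were vomeronasal organs (VNO), the pheromone-sensing organs of the nasal septum, isolated from mice at postnatal day 17. Of the 6 samples, 3 were AP-2e null, lacking the transcription factor that the gene Tfap2e codes for, and 3 were wild-type. Each was hybridised to 1 Affymetrix whole-transcript array, and the comparison asks which genes differ between the genotypes. The sources used here do not give the allele, the strain, the sex or the number of mice per sample, and the labels call the samples biological replicates. Because the RNA of each sample was measured in bulk, fewer neutrophils and less RNA of a gene per neutrophil cannot be told apart in any of these values.

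As background, granule proteins are made in waves while a neutrophil matures. Azurophil granules are filled first, at the promyelocyte stage, with Mpo, Elane and Prtn3. Specific and gelatinase granules follow, with Ltf, Camp, Ngp, Lcn2 and Mmp8, and transcripts of the first wave are largely gone from mature blood neutrophils. S100a8 and S100a9 are stored in the cytosol and remain abundant in mature cells. Ltf and Lcn2 are also made by glandular epithelium.

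To show where these genes start, the 250 bases before the start site of 5 of them, the azurophil genes Mpo, Elane and Prtn3 and the later genes Ngp and Camp, are printed 5′ to 3′ from RefSeq (build GRCm38.p6). Capitals mark matches, on either strand, to the PU.1 core GAGGAA, the C/EBP motif TTGCNNAA, the RUNX1 core TGTGGT and the AP-2 palindrome GCCNNNGGC. PU.1, C/EBP proteins and RUNX1 are regulators of granulocyte development, and AP-2e belongs to the AP-2 family.
Mpo, chr11:87793534-87793783, plus strand: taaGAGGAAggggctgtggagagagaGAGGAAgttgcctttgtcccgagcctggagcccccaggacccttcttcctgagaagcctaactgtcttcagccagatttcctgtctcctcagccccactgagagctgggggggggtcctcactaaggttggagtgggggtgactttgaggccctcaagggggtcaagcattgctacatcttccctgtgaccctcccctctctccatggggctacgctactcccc
Elane, chr10:79886062-79886311, plus strand: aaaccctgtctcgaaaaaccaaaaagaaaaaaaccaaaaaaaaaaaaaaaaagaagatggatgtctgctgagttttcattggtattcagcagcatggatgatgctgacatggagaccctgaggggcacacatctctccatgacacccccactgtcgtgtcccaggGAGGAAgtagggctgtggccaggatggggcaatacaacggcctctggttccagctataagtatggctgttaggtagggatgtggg
Prtn3, chr10:79879417-79879666, plus strand: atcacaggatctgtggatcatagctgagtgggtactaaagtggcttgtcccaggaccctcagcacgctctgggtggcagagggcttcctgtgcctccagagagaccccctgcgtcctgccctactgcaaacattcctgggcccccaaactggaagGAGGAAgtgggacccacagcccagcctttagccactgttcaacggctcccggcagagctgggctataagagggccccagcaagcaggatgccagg
Ngp, chr9:110419558-110419807, plus strand: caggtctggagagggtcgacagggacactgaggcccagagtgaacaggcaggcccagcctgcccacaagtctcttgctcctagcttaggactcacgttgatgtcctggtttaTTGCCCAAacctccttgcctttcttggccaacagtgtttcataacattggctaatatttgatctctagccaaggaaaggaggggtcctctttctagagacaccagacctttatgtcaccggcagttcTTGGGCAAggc
Camp, chr9:109849457-109849706, minus strand: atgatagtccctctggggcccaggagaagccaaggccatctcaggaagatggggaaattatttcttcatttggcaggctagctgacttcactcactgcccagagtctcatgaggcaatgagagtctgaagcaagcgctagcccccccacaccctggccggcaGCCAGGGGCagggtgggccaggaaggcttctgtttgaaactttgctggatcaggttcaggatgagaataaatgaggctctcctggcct

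The 3 azurophil genes each held GAGGAA, at -247 to -242 and -224 to -219 in Mpo, -85 to -80 in Elane and -95 to -90 in Prtn3, with -1 the last base before the annotated start. In each of these 3 genes 1 match was extended to GAGGAAGT, a longer form of the same core. Prtn3 and Elane are neighbours in the RefSeq gene table, as are S100a8 and S100a9. Of the 10 genes, 7 held GAGGAA, against 23.3% of 32851 windows of the same length, and 5 held GAGGAAGT, against 2.44%. The C/EBP letters stood in 5 genes (Lcn2, Ltf, Mmp8, Ngp and S100a9), against 9.56% of windows, with 2 matches in Ngp at -138 to -131 and -11 to -4. The AP-2 letters stood in Camp, S100a8 and S100a9, against 13.7% of windows, and in Camp at -88 to -80. The RUNX1 core stood in S100a9, against 14.05% of windows. These are letter matches in windows upstream of annotated starts, and no binding was measured.

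Facts of the arrays that touch the values are few. Pairs of arrays correlated across probe sets with r between 0.971 and 0.985, with wild-type replicate 3 the least alike, at a mean r of 0.973. Tfap2e had log2 signals of 5.97, 6.09 and 6.04 on AP-2e null arrays, against 6.46, 6.76 and 6.92 on wild-type arrays, a difference of -0.68 (SE 0.13, limma adjusted p = 0.431). Which exons the mutation removes is unknown here, so this signal alone is no check of the genotype labels. Of the defining genes of VNO neurons, Trpc2, Omp, Gnao1, Gnai2 and Gng8 were measured, and the lowest of all their values was 6.75, for Trpc2. Omp, the marker of mature sensory neurons, was between 9.46 and 9.87 in AP-2e null VNOs and between 9.93 and 10.48 in wild-type VNOs. Xist was high on AP-2e null replicate 1 alone, at 10.64, against values between 3.55 and 3.58 on the other arrays. The sex of the samples is not given, and its part in the differences was not tested. The number of arrays limits the precision.

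None of the 10 genes differed between the genotypes past the threshold, an adjusted p under 0.05 over all 22180 genes in limma, which called 0.225% of genes. At an unadjusted p under 0.05 there was 1 of the 10, Mmp8, against 4.4% of all genes. Means were higher in AP-2e null VNOs for 9 of 10 genes, against 49.4% of all genes, and the median difference was 0.43 on the log2 scale, against 0.00 for all genes. The genotypes overlapped for all 10 genes, where 7.06% of all genes did not overlap. Spread among replicates of a genotype was wide. The median within-genotype SD was 0.45, against 0.14 for all genes, and 9 of 10 exceeded that 0.14.

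**Figure D1:**
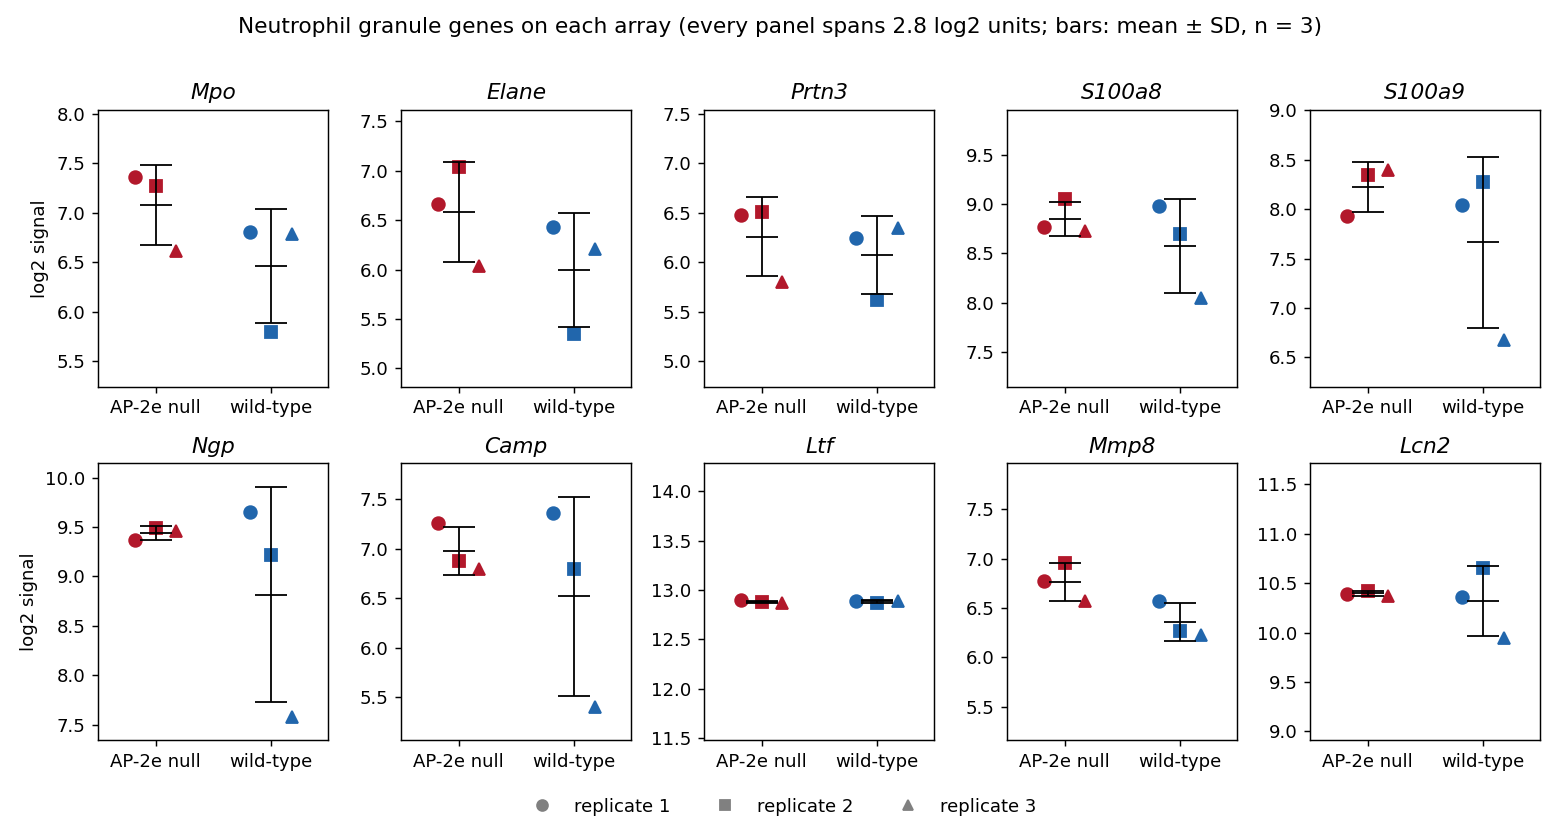
Log2 signal (y axis) of the 10 genes on AP-2e null (left, red) and wild-type (right, blue) arrays, with the replicate number shown by the symbol and black bars for mean ± SD (n = 3 each). Wild-type replicate 2 is the lowest point for Mpo, Elane and Prtn3, and wild-type replicate 3 for S100a8, S100a9, Ngp, Camp, Mmp8 and Lcn2, while Ltf spans 0.02.

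The azurophil genes varied together and had their lowest signal on wild-type replicate 2. Mpo, the peroxidase that makes hypochlorous acid, had log2 signals of 7.36, 7.27 and 6.61 in AP-2e null replicates 1, 2 and 3, against 6.81, 5.80 and 6.79 in wild-type replicates 1, 2 and 3. Elane, the serine protease neutrophil elastase, had 6.66, 7.04 and 6.04 in AP-2e null VNOs, against 6.43, 5.35 and 6.20 in wild-type VNOs. Prtn3, the related serine protease proteinase 3, had 6.48, 6.51 and 5.80 in AP-2e null VNOs, against 6.25, 5.62 and 6.35 in wild-type VNOs. In all 3 genes AP-2e null replicate 3 was the low array of its genotype, wild-type replicate 2 was the low array of the other, and the genotypes overlapped.

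The differences of these 3 genes were 0.62 (SE 0.35) for Mpo, 0.59 (SE 0.37) for Elane and 0.19 (SE 0.28) for Prtn3. Their adjusted p-values in limma were 0.873, 0.873 and 0.903. Mpo averaged 7.08 ± 0.41 in AP-2e null and 6.46 ± 0.58 in wild-type VNOs (SD, n = 3 each), so the difference was close to the spread within a genotype. Without wild-type replicate 2 the differences were 0.28, 0.26 and -0.04, and without wild-type replicate 3 they were 0.78, 0.69 and 0.33.

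S100a8 and S100a9, which pair as the calcium- and zinc-binding complex calprotectin, were lowest on wild-type replicate 3 instead. S100a8 had log2 signals of 8.77, 9.05 and 8.72 in AP-2e null VNOs, against 8.98, 8.69 and 8.05 in wild-type VNOs. S100a9 had 7.93, 8.34 and 8.39 in AP-2e null VNOs, against 8.04, 8.28 and 6.68 in wild-type VNOs. For S100a9 the gap from wild-type replicate 3 to the next array was 1.26, and the other 5 arrays lay between 7.93 and 8.39. The differences were 0.27 (SE 0.25) and 0.56 (SE 0.44), both with an adjusted p of 0.873 in limma, and without wild-type replicate 3 they were 0.01 and 0.06.

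Ngp and Camp, both of the cathelicidin-related group of secreted neutrophil proteins, showed the same array as the low one, and by more. Ngp, first known as a granule protein of mouse neutrophils, had log2 signals of 9.36, 9.49 and 9.46 in AP-2e null VNOs, against 9.65, 9.22 and 7.58 in wild-type VNOs. Camp, the precursor of the antimicrobial peptide cathelicidin, had 7.26, 6.88 and 6.80 in AP-2e null VNOs, against 7.36, 6.80 and 5.40 in wild-type VNOs. Wild-type replicate 3 lay 1.64 below the next array for Ngp and 1.397 below it for Camp, while wild-type replicate 1 was the highest of all 6 arrays for both.

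The fitted differences were 0.62 (SE 0.53, adjusted p = 0.873 in limma) for Ngp and 0.46 (SE 0.51, adjusted p = 0.881) for Camp. Ngp averaged 9.44 ± 0.07 in AP-2e null and 8.82 ± 1.09 in wild-type VNOs (SD, n = 3 each). The within-genotype SD of Ngp, 0.77, stood at percentile 98.97 of all genes, and that of Camp, 0.73, at percentile 98.85. Without wild-type replicate 3 the differences were 0.01 and -0.10.

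Mmp8, the neutrophil collagenase, was the gene with the smallest p of the 10. Its log2 signal was 6.77, 6.96 and 6.57 in AP-2e null VNOs, against 6.58, 6.27 and 6.23 in wild-type VNOs. The lowest AP-2e null array and the highest wild-type array all but coincided, so the genotypes overlapped at that point. The difference was 0.41 (SE 0.14), or 1.33-fold, with an unadjusted p of 0.0279 and an adjusted p of 0.873 in limma. It kept most of its size when an array was left out, at 0.37 without wild-type replicate 2 and 0.35 when replicate 3 was left out instead, and lay between 0.32 and 0.52 over 14 alternatives.

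Lcn2, the lipocalin that binds bacterial siderophores, had log2 signals of 10.39, 10.43 and 10.37 in AP-2e null VNOs, against 10.36, 10.65 and 9.95 in wild-type VNOs. Wild-type arrays were both the highest and the lowest, and the difference was 0.07 (SE 0.18, adjusted p = 0.941 in limma). Without wild-type replicate 3 it was -0.11.

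Ltf, the iron-binding protein lactoferrin, hardly varied. Its log2 signal was 12.89, 12.88 and 12.87 in AP-2e null VNOs, against 12.89, 12.87 and 12.89 in wild-type VNOs, a difference of -0.0036 (SE 0.05, adjusted p = 0.993). Only 19 of the 22180 genes had a higher mean signal, and AP-2e null replicate 3 and wild-type replicate 2 held the identical value of 12.872. The 54 genes with a mean of 12 or more had a median within-genotype SD of 0.09, against 0.14 for all genes. Whether signals this near the top of the array's range could still register a change was not tested.

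Set by role, the genes divided into those low on one wild-type array and those low on another. The 3 genes lowest on wild-type replicate 2 were the 3 azurophil genes, where 18.6% of all genes were lowest on that array. The 6 lowest on wild-type replicate 3 were the cytosolic and later granule genes other than Ltf, where 19.7% of all genes were lowest there. Gaps of at least 0.5 to the next array were found for Mpo (0.82) and Elane (0.69) on wild-type replicate 2, against 0.618% of all genes. On wild-type replicate 3 such gaps were found for S100a8 (0.64), S100a9, Ngp and Camp, against 1.49% of all genes. The gaps of Lcn2, Prtn3 and Mmp8 were 0.41, 0.18 and 0.04.

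Averaged by role and set against the mean over all 6 arrays, the azurophil genes stood at 0.42, 0.53 and -0.26 on the AP-2e null arrays and at 0.09, -0.82 and 0.04 on the wild-type arrays. The specific and gelatinase granule genes stood at 0.20, 0.19 and 0.08 on the AP-2e null arrays and at 0.23, 0.03 and -0.73 on the wild-type arrays. The cytosolic pair stood at 0.02, 0.37 and 0.23 on the AP-2e null arrays and at 0.19, 0.16 and -0.96 on the wild-type arrays. Wild-type replicate 2 was thus low in the first group and near the mean in the others, and wild-type replicate 3 the reverse. Wild-type replicate 1 was at or above the lowest AP-2e null array for 9 of 10 genes, Lcn2 being the exception. The share of all genes for which this held was not computed, so the count describes these genes only.

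**Figure D2:**
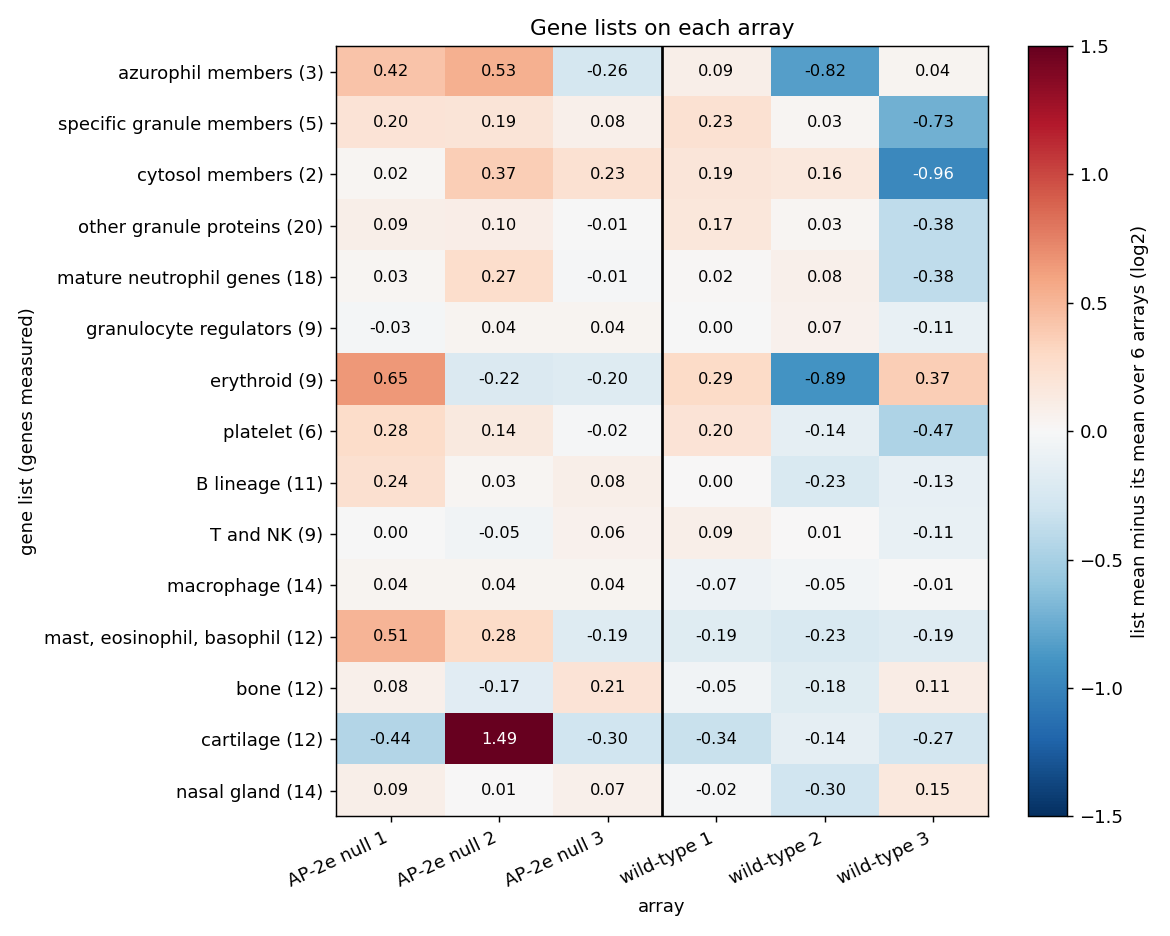
Mean log2 signal of each gene list (rows, with the number of genes measured) on each array (columns, AP-2e null left of the line and wild-type right), minus the list's mean over the 6 arrays. Azurophil genes and erythroid genes are lowest on wild-type replicate 2 (-0.82 and -0.89), and specific granule and cytosolic genes on wild-type replicate 3 (-0.73 and -0.96).

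**Figure D3:**
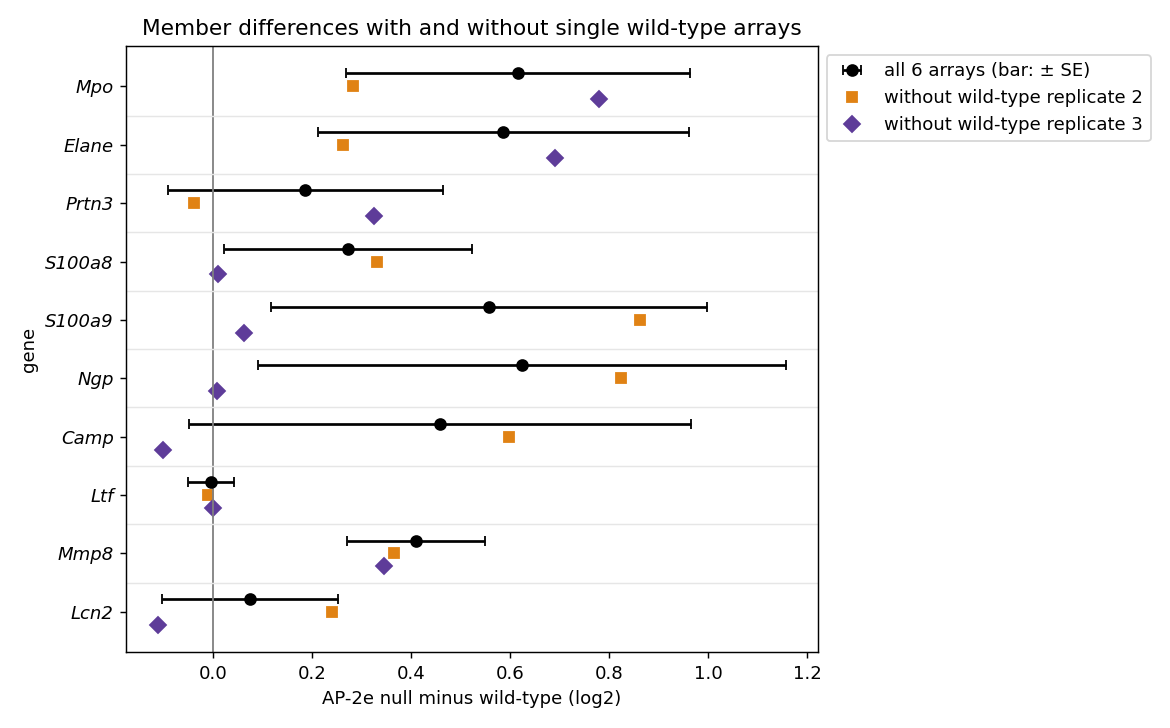
AP-2e null minus wild-type log2 difference (x axis) of each gene (rows) with all 6 arrays (black, bars ± SE), leaving out wild-type replicate 2 (orange squares) or wild-type replicate 3 (purple diamonds). Without wild-type replicate 3 the differences of S100a8, S100a9, Ngp and Camp lie between -0.10 and 0.06, and Mmp8 stays between 0.35 and 0.41 in all 3 settings.

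The median difference over the 10 genes followed the same arrays. It was 0.43 with all arrays, 0.31 when wild-type replicate 2 was left out and 0.04 when wild-type replicate 3 was, where the median over all genes stayed between -0.01 and 0.00. The means per array over the 10 genes were 8.39, 8.48 and 8.16 in AP-2e null VNOs, against 8.33, 7.95 and 7.61 in wild-type VNOs.

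Other granule proteins showed the pattern of the later genes, with exceptions. Of 20 measured, 0 passed in limma and 0 had an unadjusted p under 0.05, 13 had a positive difference, and the median difference was 0.10. Of the 20, 11 were lowest on wild-type replicate 3 and 3 on wild-type replicate 2, against 19.7% and 18.6% of all genes. By at least 0.5, 4 were lowest on wild-type replicate 3 and 1 on wild-type replicate 2, against 1.49% and 0.618% of all genes. Chil3, a chitinase-like protein of myeloid cells, had log2 signals of 7.99, 8.49 and 7.99 in AP-2e null VNOs, against 8.28, 7.70 and 5.76 in wild-type VNOs, a difference of 0.91 (SE 0.66, adjusted p = 0.873). Mmp25, a membrane-bound metalloproteinase of neutrophils, differed by 0.17 and was lowest on the same array. Stfa2, a stefin, was instead highest there, at 4.20, and lowest on wild-type replicate 2, at 3.30. Ptx3, a pentraxin stored in specific granules, differed by 0.16 (SE 0.10, adjusted p = 0.873).

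Some further genes were chosen after their values were seen. Ctsg, the azurophil protease cathepsin G, had log2 signals of 5.72, 5.48 and 5.41 in AP-2e null VNOs, against 5.69, 4.75 and 5.32 in wild-type VNOs. It was lowest on wild-type replicate 2. Others of the same list were not: Lyz2 was lowest on wild-type replicate 3, Ctsc on AP-2e null replicate 3 and Bpi on AP-2e null replicate 2. Cd177, a surface protein of neutrophils stored in specific granules, had 9.67, 9.74 and 9.40 in AP-2e null VNOs, against 10.44, 10.60 and 8.53 in wild-type VNOs. Its wild-type arrays lay on both sides of the AP-2e null ones. Mmp9, the gelatinase that osteoclasts also make, was highest on wild-type replicate 3, at 10.81.

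Genes of mature neutrophils gave no call either. Of 18 measured, 0 passed in limma, 1 had an unadjusted p under 0.05, 15 had a positive difference, and the median was 0.18. On wild-type replicate 3, 10 of the 18 were lowest, against 19.7% of all genes, but only 2 by at least 0.5, against 1.49%. On wild-type replicate 1, 4 of the 18 were lowest. Csf3r, the receptor for granulocyte colony-stimulating factor, was 1 of those 4. Its log2 signal was 7.59, 7.72 and 7.64 in AP-2e null VNOs, against 7.18, 7.50 and 7.47 in wild-type VNOs, with no overlap. Its difference was 0.27 (SE 0.10), with an unadjusted p of 0.0434 and an adjusted p of 0.873 in limma. The integrin subunit Itgb2 differed by 0.22, the cytokine Il1b by 0.26 and the lectin receptor Clec4d by 0.23, each with the same adjusted p.

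**Figure D4:**
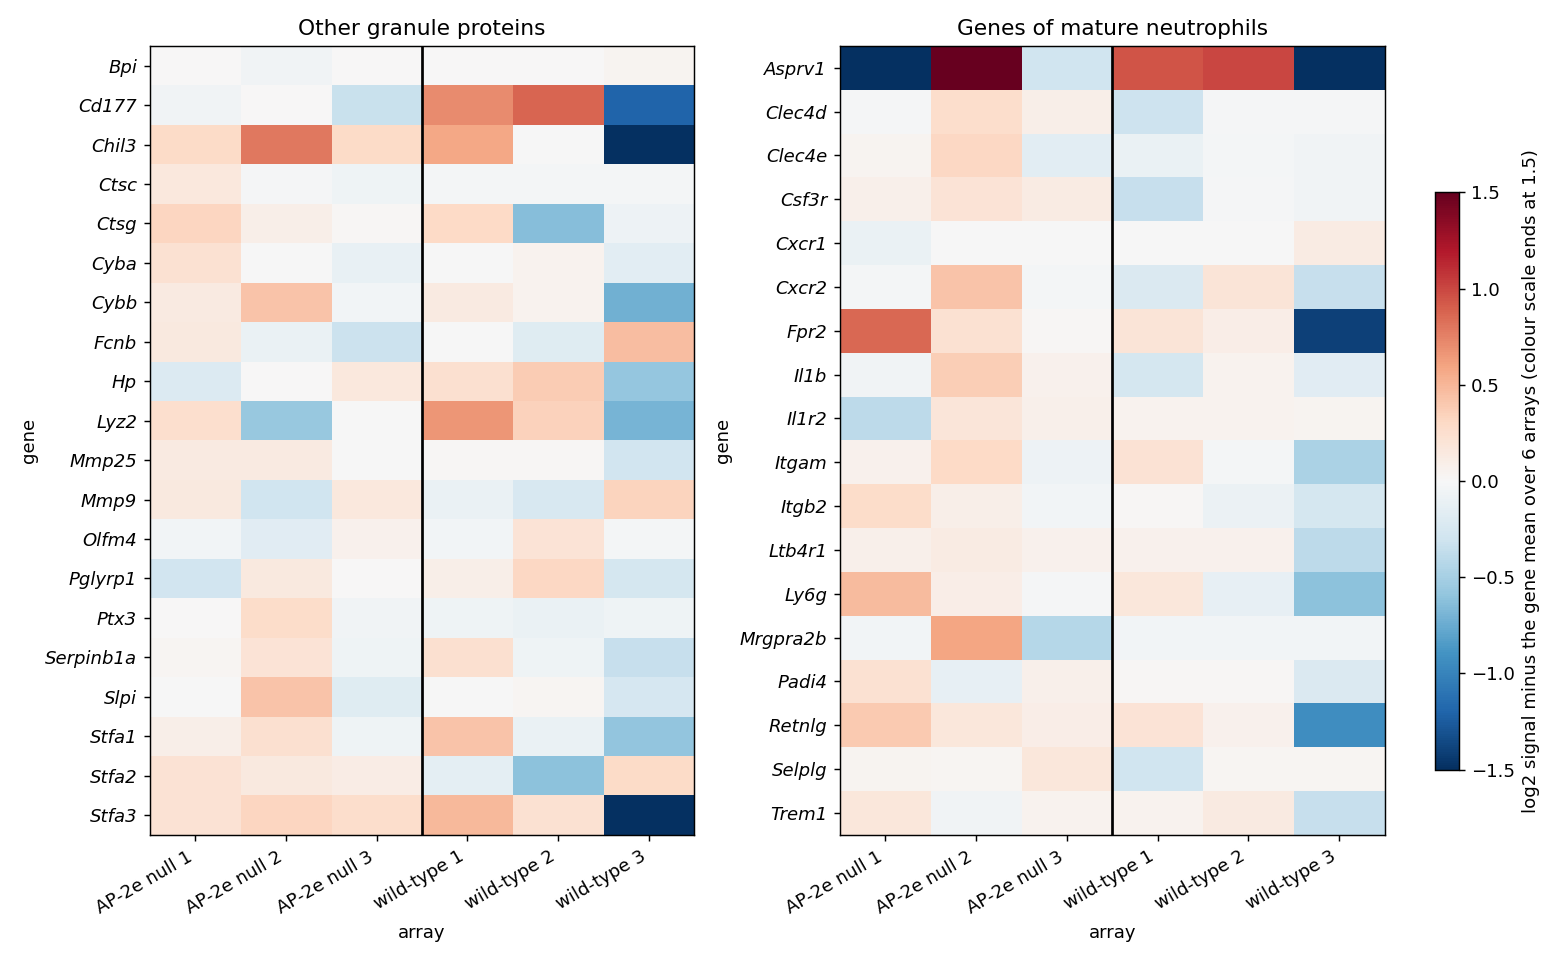
Log2 signal of each other granule protein gene (left) and each gene of mature neutrophils (right) on each array (columns, AP-2e null left of the line and wild-type right), minus the gene's mean over the 6 arrays, with the colour scale ending at 1.5 in both directions. Chil3, Stfa3, Cd177, Fpr2 and Retnlg are dark blue on wild-type replicate 3, and Ctsg is lowest on wild-type replicate 2. Asprv1 is dark blue on both wild-type replicate 3 and AP-2e null replicate 1.

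Transcription factors of granulocyte development gave no call. Of 9 measured, 0 passed in limma and 0 had an unadjusted p under 0.05, and the median difference was 0.06. Cebpe, the C/EBP protein that specific granule genes need, had a log2 signal of 4.62 on all 3 AP-2e null arrays, against 4.65, 4.49 and 4.46 in wild-type VNOs. Its difference was 0.08 (SE 0.07). Cebpa, which acts earlier in the lineage, differed by -0.30 (SE 0.18), Cebpb by -0.10 and Cebpd by 0.15, with adjusted p-values of 0.873. On wild-type replicate 3, 5 of the 9 factors were lowest, and the list stood 0.11 below its mean over the arrays there.

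Markers of red cells moved with the azurophil genes on wild-type replicate 2. Of 9 erythroid genes measured, 7 were lowest on that array, 4 of them by at least 0.5, and the list stood at -0.89 there. The list mean ranged from 5.89 to 6.77 in AP-2e null VNOs and from 5.22 to 6.49 in wild-type VNOs. Slc4a1, the anion exchanger of red cells, had log2 signals of 9.18, 8.24 and 8.18 in AP-2e null VNOs, against 8.62, 6.97 and 9.01 in wild-type VNOs. Car1, a red cell carbonic anhydrase, had 7.53, 6.74 and 6.74 in AP-2e null VNOs, against 7.57, 5.27 and 6.73 in wild-type VNOs. Rhag, a membrane protein of red cells, and Tspo2, an erythroid membrane protein, were lowest on the same array, at 4.96 and 4.23. The globin genes had probe sets of several genes and were not analysed here. None of the 9 passed in limma and 0 had an unadjusted p under 0.05, with a median difference of 0.09.

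The lists did not match on every array: AP-2e null replicate 2 was the highest of its genotype for the azurophil genes, at 0.53, and stood at -0.22 for the erythroid genes. The part of red cell precursors in the azurophil values was not tested.

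Most platelet genes were lowest on the same array as the later granule genes. Of 6 measured, 5 were lowest on wild-type replicate 3, but only 2 by at least 0.5. All 6 had a positive difference, and the list mean ranged from 6.32 to 6.61 in AP-2e null VNOs and from 5.87 to 6.54 in wild-type VNOs. Ppbp, a chemokine of platelet granules, had log2 signals of 9.27, 9.33 and 8.67 in AP-2e null VNOs, against 9.48, 8.91 and 7.85 in wild-type VNOs. Pf4, platelet factor 4, had 6.46, 6.41 and 6.32 in AP-2e null VNOs, against 6.16, 5.84 and 5.82 in wild-type VNOs, with no overlap, a difference of 0.46 (SE 0.11) and an adjusted p of 0.832 in limma. The platelet membrane proteins Gp9 and Treml1 differed by 0.55 and 0.19, and Gp9 was lowest on wild-type replicate 2, at 6.31. In limma 0 of the 6 passed, with 1 at an unadjusted p under 0.05, and the part of platelets in the granule gene values was not tested.

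Across arrays, the list means of B-lineage, macrophage, and T and NK cell genes ranged less than those of erythroid and platelet genes. Of 11 B-lineage genes, all 11 had a positive difference, with a median difference of 0.21, and 10 were lowest on wild-type replicate 2 or 3 (6 and 4). On wild-type replicate 2, 2 of the 11 were lowest by at least 0.5, against 0.618% of all genes. Igll1, the surrogate light chain of B cell precursors, had log2 signals of 6.68, 6.38 and 6.52 in AP-2e null VNOs, against 6.42, 5.94 and 6.33 in wild-type VNOs. Dntt, the polymerase of lymphoid precursors, differed by 0.38, the antigen receptor subunit Cd79b by 0.28 and the adaptor Blnk by 0.21. Of these 11 genes, 0 passed in limma and 0 had an unadjusted p under 0.05.

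The 14 macrophage genes had a list mean between 7.13 and 7.14 in AP-2e null VNOs and between 7.02 and 7.09 in wild-type VNOs, with 0 passing and 1 at an unadjusted p under 0.05. Mrc1 differed by 0.21, Cx3cr1 by 0.33, Csf1r by 0.16 and Ccr2 by 0.19. The 9 T and NK cell genes had a median difference of -0.03, with 0 passing and 1 at an unadjusted p under 0.05, Cd4 at 0.33. Neither list had a gene lowest on wild-type replicate 3 by 0.5 or more.

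Tissue next to the sensory epithelium was checked with bone, cartilage and gland genes. The 12 bone genes had a median difference of 0.10, with 0 passing and 1 at an unadjusted p under 0.05, the osteoblast gene Bglap at 0.45. Their list stood at -0.18 on wild-type replicate 2 and at 0.11 on wild-type replicate 3. The 12 cartilage genes all had a positive difference, with a median of 0.44, and 0 passed or had an unadjusted p under 0.05. On AP-2e null replicate 2, 10 of them exceeded every other array by at least 0.5. The 14 nasal gland genes had a median difference of 0.05, with 0 passing and 0 at an unadjusted p under 0.05. Among them the secreted lipocalin genes Lcn4 and Lcn11 differed by -0.23 and -0.40, and Pigr, which carries antibodies through gland epithelium, by 0.18.

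By the nearest pattern over the 6 arrays, measured as the root mean square distance between values after each gene's own mean was removed, the closest genes to the average of the 10 were Sepsecs (0.07), Slc35d2 (0.07), H2-T24 (0.08), Vit (0.09), Cox18 (0.10), Prdm9 (0.10), Metap1d (0.11) and Plxdc1 (0.11). None of these is a neutrophil gene in the lists used here. The same measure was then taken for the groups by role, a choice made after the values were seen. Nearest to the azurophil genes were the pseudogene Klk1b7-ps (0.11), Rgs18 (0.12), a G protein regulator of blood cells, Hadhb (0.13) and Shcbp1 (0.13). Hmmr (0.15) and Mki67 (0.17), a marker of dividing cells, followed with Olfr1282 (0.14) and Aplnr (0.17). Mki67 had log2 signals of 9.22, 8.93 and 8.54 in AP-2e null VNOs, against 8.95, 7.98 and 8.95 in wild-type VNOs. As it was picked for nearness to the azurophil pattern, its low value on wild-type replicate 2 follows from the choice.

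Nearest to the 6 later genes without Ltf were Gad2 (0.09), Pianp (0.09), Vmn1r52 (0.09), Wdfy1 (0.10), Zfp949 (0.10), Retnlg (0.10), Fam205a2 (0.11) and Tlr1 (0.11). Of these, Retnlg is the mouse resistin-like gene of neutrophils, and had log2 signals of 7.73, 7.51 and 7.44 in AP-2e null VNOs, against 7.55, 7.405 and 6.41 in wild-type VNOs. Gad2, which makes the neurotransmitter GABA, had 6.22, 6.07 and 6.07 in AP-2e null VNOs, against 6.10, 5.94 and 5.07 in wild-type VNOs. These genes were picked for nearness to the pattern of the 6 later genes, so their low value on wild-type replicate 3 follows from the choice. Of all genes, 1.49% were lowest on that array by at least 0.5. Over all 22180 genes, 330 were lowest on wild-type replicate 3 by at least 0.5 and 335 were highest there by at least 0.5. That array was the least like the others over all probe sets, at a mean r of 0.973. The differences of the later granule genes without it are given above, and the cause of its low values was not tested.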

How the data were processed

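RNA of VNOs was measured on 6 Affymetrix arrays, 3 AP-2e null and 3 wild-type, grouped by sample title. The deposited table holds log2 signals for 41345 probe sets. Per the submitters' processing notes the authors' tools were RMA, a background correction, quantile normalization and probe summary, and the Transcriptome Analysis Console. The sources used here give no versions, settings or genome build.

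Of the probe sets, 23521 carried the symbol of 1 gene, 1814 of several and 16010 of none in the platform annotation. A RefSeq gene table (GRCm38.p6) matched 23328 of the first by Entrez identifier and changed 0 symbols. Keeping the highest-mean probe set per gene left 22180 genes, with no filter on dim genes.

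The genotypes were compared in limma 3.58.1 (R 4.3.3), with lmFit, eBayes and 2-sided p-values, adjusted by Benjamini-Hochberg over all genes. The fit was tested on simulated data. P-values refer to spread between 3 samples per genotype. Lists were described by counts, medians and means, with no test. Members and lists were chosen with earlier results of these data known. Named were all members, up to 4 genes per other list by smallest p, and the 8 nearest patterns, with further names marked as chosen after their values were seen. Promoters were searched with exact letters on both strands. Alternatives were trend and robust moderation, averaged or separate probe sets, omission of the dimmest 30% of genes, centring on the median, quantile normalization again, array weights, a replicate block and leaving out each array. Plots used matplotlib 3.10.9.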

Additional observations from a re-analysis of the deposited data

How the results depend on the processing

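None of the 10 genes passed in any of 14 alternatives, where adjusted p lay between 0.780 (Mpo and Mmp8) and 1. The median difference of the 10 was 0.036 without wild-type replicate 3, and between that and 0.63 with single arrays left out. With array weights, which gave wild-type replicate 3 the lowest weight (0.494), it was 0.24. Leaving out wild-type replicate 3 turned the sign of Camp (-0.10) and Lcn2 (-0.11), and leaving out wild-type replicate 2 that of Prtn3 (-0.039). With single arrays left out, differences ran between -0.10 and 0.88 for Camp, -0.11 and 0.24 for Lcn2, -0.039 and 0.42 for Prtn3, and -0.0106 and 0.001 for Ltf. Ltf, at -0.0036, was 0.0058 with median centring, 0.0255 with repeated quantile normalization, 0.0008 without AP-2e null replicate 3 and 0.001 without wild-type replicate 3. The number of all genes passing was 50, and between 17 and 32 with an array left out (lowest for wild-type replicate 2, highest for wild-type replicate 3), where fewer samples were fitted. Same-numbered samples deviated together with r of 0.04, 0.11 and 0.02, so the numbers were not taken to pair the samples, and with the replicate block 22 genes passed, none of them among the 10. The number of arrays limits what could be detected.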

Other observations

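Granule genes of eosinophils, the granulocytes that stain with eosin, were high on a pair of AP-2e null arrays. Prg2, which codes for the eosinophil major basic protein and is named after its values were seen, had log2 signals of 7.97, 7.78 and 5.32 in AP-2e null replicates 1, 2 and 3, against 5.82, 5.50 and 5.86 in wild-type replicates. Epx, eosinophil peroxidase, had 6.15, 6.39 and 4.54 in AP-2e null VNOs, against 4.56, 4.62 and 4.61 in wild-type VNOs. Ear6, an eosinophil-associated ribonuclease of mice, had 4.91, 4.67 and 3.43 in AP-2e null VNOs, against 3.16, 2.59 and 3.44 in wild-type VNOs. AP-2e null replicate 3 lay with the wild-type arrays in all 3 genes, and the limma differences were 1.30 (SE 0.73), 1.10 (SE 0.49) and 1.28 (SE 0.44), each with an adjusted p of 0.873. Cpa3, the mast cell carboxypeptidase, had no overlap, at 8.83, 8.36 and 8.35 in AP-2e null VNOs, against 7.94, 8.06 and 8.05 in wild-type VNOs (difference 0.50, SE 0.14, limma adjusted p = 0.873). Mcpt4, Tpsb2 and Cma1, other mast cell genes named after their values were seen, overlapped, with differences of 0.24, 0.03 and -0.02. The basophil protease gene Prss34 differed by 0.19. Of the 12 measured genes of mast cells, eosinophils and basophils, 0 passed in limma, 3 had an unadjusted p under 0.05, and the median difference was 0.16.

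Of 14 genes of inflammation, 0 passed in limma, 2 had an unadjusted p under 0.05, and 3 had a positive difference. Cxcl1, a chemokine that attracts neutrophils, had log2 signals of 4.90, 4.98 and 5.09 in AP-2e null VNOs, against 5.45, 5.999 and 5.52 in wild-type VNOs, with no overlap (difference -0.67, SE 0.16, limma adjusted p = 0.854). The cytokine Tnf had 5.71, 6.04 and 5.92 in AP-2e null VNOs, against 6.13, 6.31 and 6.17 in wild-type VNOs (limma adjusted p = 0.873). Ccl4, a chemokine of macrophages, differed by 0.18.

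Named after their values were seen, 3 further genes varied widely within both genotypes. Obp1a, an odorant-binding protein, had log2 signals of 3.93, 10.26 and 10.81 in AP-2e null VNOs, against 4.68, 2.001 and 12.29 in wild-type VNOs. Bpifb9a, a secreted protein of nasal glands, had 10.17, 7.97 and 8.13 in AP-2e null VNOs, against 12.47, 8.80 and 8.90 in wild-type VNOs. Asprv1, a protease gene in the mature neutrophil list, had 6.15, 9.21 and 7.35 in AP-2e null VNOs, against 8.59, 8.65 and 5.92 in wild-type VNOs.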
